A study of Homo sapiens with 4 samples.

Results

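The enzymes that make and recycle S-adenosylmethionine (SAM), the methyl donor for m6A, were examined together with the m6A methyltransferase METTL16 in m6A-seq of X-ray-exposed cells. The 8 genes were chosen by name and were MAT2A, MAT2B, METTL16, AHCY, AHCYL1, AHCYL2, MTR and MTRR, out of 14911 gene names with a count. All 8 were listed, with 17 of the 28413 transcripts. Averaged over the libraries, 50 counts or more were reached by 4 of them (MAT2A, METTL16, MTR and AHCY), as by 5320 genes in all, and AHCYL1, AHCYL2, MAT2B and MTRR stayed under it.

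The study asked what the m6A demethylase ALKBH5 does after DNA damage by X-rays. HEK293T cells are human embryonic kidney cells transformed with adenoviral and SV40 genes. Cells of both genotypes, shCTL (control shRNA) and shALKBH5 (named shA5), had been infected with pLKO.1 lentivirus, selected with puromycin and exposed to X-rays, with a dose of 10 Gy in the methods. From each genotype the fragmented polyA+ RNA was sequenced before (input) and after immunoprecipitation with an m6A antibody (m6A-IP), which gives 4 libraries and 1 library per group. No unexposed library was analysed here, the methods name harvests at 1, 12 and 24 h without assigning one to these libraries, and which of the 2 listed ALKBH5 shRNAs was used is not stated. No difference between shCTL and shA5 therefore has a replicate check.

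SAM is made from methionine by methionine adenosyltransferase, of which MAT2A is the catalytic and MAT2B the regulatory subunit outside the liver. Methyltransferases turn SAM into S-adenosylhomocysteine, which AHCY hydrolyses to homocysteine, and MTR, kept active by its reductase MTRR, remakes methionine from homocysteine. METTL16 methylates U6 snRNA and hairpins in the 3′ UTR of MAT2A mRNA, and when SAM is scarce its stay on these hairpins favours removal of the last MAT2A intron, which otherwise is often retained.

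The inputs held 2237819 counts in shCTL and 1311390 in shA5, and the IPs held 3944402 and 3148119. Values are scaled to the library total as CPM. A count of 3, used as the floor, is 1.34 and 2.29 CPM in the shCTL and shA5 inputs and 0.761 and 0.953 CPM in the IPs, so the shA5 input is the least precise library. Enrichment is IP over input on the log2 scale, with 0.5 CPM added to each side. A change of m6A common to all transcripts would not show in it, because each library is scaled to its own total. Intervals are exact 95% intervals that cover counting error only. ALKBH5, the targeted gene, had input levels of 217 CPM (shCTL) and 111 CPM (shA5) and IP levels of 363 and 187 CPM. Both shA5 libraries were below their shCTL counterparts, with a log2 difference of -0.97 (-1.25 to -0.70) between the inputs and of -0.95 between the IPs. The enrichment of ALKBH5 RNA differed between the genotypes by 0.016 on the log2 scale.

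Of 5 genes used to check the cell label, NEFL (mean of 281 counts) and LIN28B (51) passed the filter, while PAX2 (0.25), VIM (5.5) and NEFM (4.25) were near the floor. Their summed level was 116 CPM (shCTL) and 87.7 CPM (shA5) in the inputs and 162 and 112 CPM in the IPs. PTPRC, ALB, CDH5 and KRT5, markers of blood, liver, endothelium and keratinocytes, were not listed in any library. The fibroblast marker COL1A1 was present, with a mean of 344 counts and an input level of 179 CPM in shCTL and 114 CPM in shA5, a log2 difference of -0.65 (-0.93 to -0.37). The part of these markers in the values of the SAM genes was not tested, and in bulk RNA fewer cells of a type and less RNA per cell cannot be told apart.

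MAT2A (ENSG00000168906) lies at chr2:85539168-85545281 of hg38 on the plus strand, and 2 of its transcripts had counts. ENST00000306434, with 2817 nt and 9 exons, carries the full 3′ UTR. ENST00000409017, with 1927 nt, starts at an exon of its own and runs past the end of exon 8 into the last intron, where it ends. The last intron of ENST00000306434 spans chr2:85543035-85543669, and ENST00000409017 holds 574 of its 635 bases and none of exon 9. The METTL16 motif of the MAT2A hairpins, TACAGANAA, was searched on the sense strand of the transcripts, since METTL16 reads RNA. It was found 6 times in ENST00000306434, each time in the 3′ UTR part of exon 9, and not in ENST00000409017. The 30-base windows are shown because they hold the matches to this motif in MAT2A, beside the AHCYL1 match for comparison, and capitals mark the motif.
MAT2A site 1: tggcgtaggcTACAGAGAAgccttcaagct
MAT2A site 2: tgtgatgtcaTACAGAGAAgtcacagggca
MAT2A site 3: ctggtgtagcTACAGAGAAaccagcttcct
MAT2A site 4: atggcgtaagTACAGAGAAgccatcacctc
MAT2A site 5: caaggtgtccTACAGAAAAaccttgggtta
MAT2A site 6: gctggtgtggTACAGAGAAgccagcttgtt
AHCYL1: gcatggggtgTACAGAAAAtctcccttcag

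The MAT2A windows are chr2:85543802-85543831, chr2:85544589-85544618, chr2:85544774-85544803, chr2:85544889-85544918, chr2:85545004-85545033 and chr2:85545112-85545141, all on the plus strand. Their motifs begin 40, 827, 1012, 1127, 1242 and 1350 bases after the stop codon. The AHCYL1 window, chr1:109985514-109985543 on the plus strand, lies in the 5′ UTR of ENST00000393614 and holds the only match in the listed transcripts of the other 7 genes. METTL16 mRNA itself had no match.

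Among the 27886 listed transcripts with a Gencode v44 sequence, 2638 (9.46%) held at least 1 match to TACAGANAA. In the 3632 transcripts of 2500 to 3200 nt, the size range of the MAT2A mRNA, the share was 7.43%. MAT2A ENST00000306434 was the only listed transcript with 6 matches, and the next highest number was 5, in 1 transcript. RNAfold gave the MAT2A windows minimum free energies between -8.70 (site 6) and -4.90 kcal/mol (site 4), with the motif mostly in the loop, where 6 to 9 of its 9 bases were unpaired. The AHCYL1 window gave -3.90 kcal/mol, with 9 of 9 motif bases unpaired, so such a placement was not limited to MAT2A. These are predictions for windows of 30 bases alone, and a match to the letters is a description, not a measured m6A site.

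**Figure D1:**
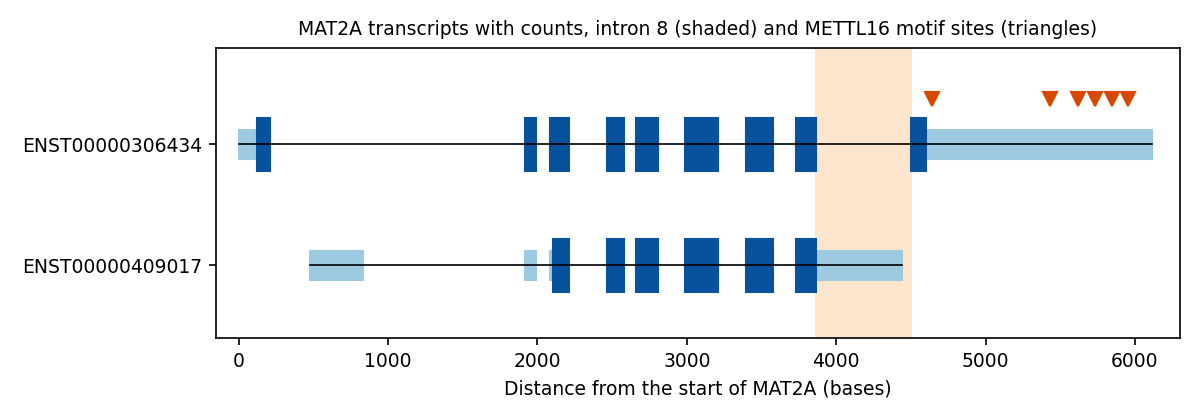
Exons of the MAT2A transcripts with counts, by distance in bases from the start of MAT2A. Tall dark boxes are coding sequence, low light boxes are untranslated sequence, the shaded band is intron 8, and triangles mark the 6 matches to the METTL16 motif, which all lie in the 3′ UTR of ENST00000306434.

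MAT2A had the most counts of the 8 genes in every library. Its inputs held 2549 counts (1139 CPM) for shCTL and 1400 counts (1068 CPM) for shA5, and its IPs 2203 counts (559 CPM) and 1675 counts (532 CPM). The inputs were high and the IPs low in both genotypes, with no overlap of their intervals. The IP level was 2.04-fold below the input in shCTL, a log2 enrichment of -1.03 (-1.11 to -0.95), and 2.01-fold below it in shA5, an enrichment of -1.004 (-1.11 to -0.90). Of the 5320 genes, 16.1% in shCTL and 18.3% in shA5 had a lower enrichment than MAT2A. Between shA5 and shCTL, MAT2A differed by -0.093 (-0.19 to 0.0011) in the input, by -0.070 (-0.16 to 0.022) in the IP and by 0.024 (-0.11 to 0.16) in enrichment, all log2 and each with 0 inside its interval. With ENST00000306434 alone the difference in enrichment was -0.018, so its sign is not fixed by these counts.

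Enrichment was computed over whole transcripts, so the level of m6A at a single MAT2A site is not resolved by it. The last 562 bases of MAT2A exon 9, chr2:85544720-85545281, overlap exons of GGCX on the opposite strand and contain 4 of the 6 motif matches. GGCX, the vitamin K-dependent carboxylase, had 154 (shCTL) and 72 (shA5) counts in the inputs and 129 and 80 in the IPs. Whether counting used the strand is not given in the sources used here, so reads of MAT2A and GGCX in this stretch cannot be told apart. MAT2A also has 1 pseudogene named after it.

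Counts were listed separately for the MAT2A transcripts. ENST00000306434 had 2018 (shCTL) and 1148 (shA5) counts in the inputs and 1865 and 1427 in the IPs. ENST00000409017, the transcript that ends in intron 8, had 531 and 252 counts in the inputs and 338 and 248 in the IPs. Its share of MAT2A counts was 20.8% (exact binomial 19.3 to 22.5%) for shCTL and 18% (16.0 to 20.1%) for shA5 in the inputs, and 15.3% (13.9 to 16.9%) and 14.8% (13.1 to 16.6%) in the IPs. The share was highest in the shCTL input and lower in both IPs, whose intervals overlapped each other, and the intervals of the inputs overlapped as well.

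Relative to ENST00000306434, the intron 8 transcript was lower in the IP than in the input, by -0.54 (-0.76 to -0.32) on the log2 scale in shCTL and by -0.34 (-0.62 to -0.053) in shA5. From shCTL to shA5 this ratio differed by -0.26 (-0.51 to -0.017) between the inputs, from 26.3 to 21.95 counts of ENST00000409017 per 100 of ENST00000306434. Between the IPs, at 18.1 and 17.4 per 100, the difference was -0.060 (-0.32 to 0.20). The ratios do not depend on the library totals. Of 205 genes with a pair of transcripts that each averaged 50 counts or more, 58.5% differed between the inputs by at least as much as MAT2A, and 64.4% differed by at least as much between IP and input in shCTL. The difference at MAT2A was thus not unusual in size among these pairs. Pairs were admitted from 50 counts, well under those of MAT2A, so counting error can widen their spread. The comparison was not made at equal precision. A count of ENST00000409017 can come from intron 8, from its own first exon or from the exons it shares with ENST00000306434, and the counts do not show which.

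**Figure D2:**
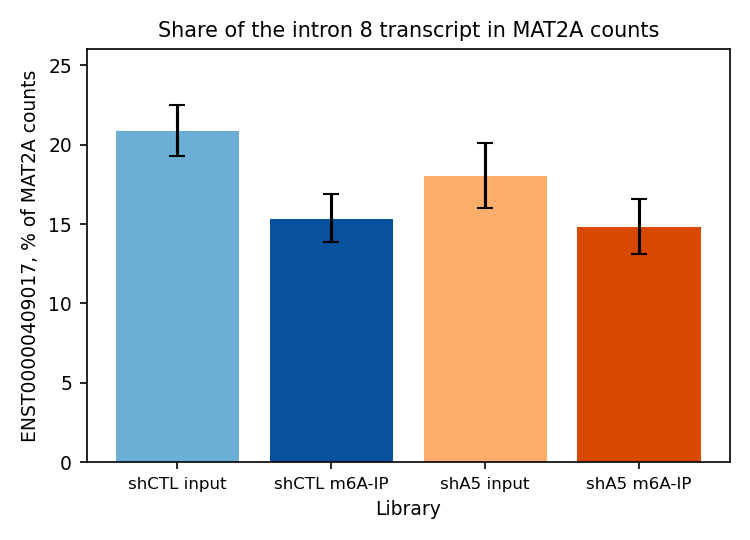
Share of MAT2A counts on ENST00000409017, the transcript that ends in intron 8, in percent for each library, with exact 95% binomial intervals (counting error only). The bars stand at 20.8, 15.3, 18 and 14.8% from left to right.

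METTL16 (ENSG00000127804, chr17:2405562-2511891, minus strand) had 1 listed transcript, with 535 counts (239 CPM) for shCTL and 372 counts (284 CPM) for shA5 in the inputs and 1191 counts (302 CPM) and 1217 counts (387 CPM) in the IPs. Unlike MAT2A, it was higher in the IP than in the input in both genotypes, and higher in shA5 than in shCTL in both kinds of library. Its enrichment was 0.34 (0.19 to 0.49) in shCTL and 0.45 (0.28 to 0.62) in shA5. The shA5 input was 1.19-fold above the shCTL input, a log2 difference of 0.25 (0.052 to 0.44), and the IPs differed by 0.36 (0.24 to 0.47). Both intervals lie above 0, but they cover counting error only, and 80.4% of the 5320 genes had a lower input difference. The IP difference over all genes had quartiles of -0.23 and 0.18, and that of METTL16 lay above both. For METTL16 the difference in enrichment was 0.11 (-0.12 to 0.34), with 0 inside its interval.

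MTR (ENSG00000116984, chr1:236795260-236921278, plus strand), which methylates homocysteine with a cobalamin cofactor, had inputs of 825 counts (369 CPM, shCTL) and 460 counts (351 CPM, shA5) and IPs of 1286 counts (326 CPM) and 919 counts (292 CPM). Both IPs were somewhat below their inputs. The enrichment of MTR was -0.18 (-0.30 to -0.049) in shCTL and -0.26 (-0.43 to -0.10) in shA5, close to the median of all genes. With DESeq2 size factors the values were -0.057 in shCTL and -0.16 in shA5, so how far MTR lay below its input depended on scaling. Its IP was lower in shA5 by -0.16 (-0.28 to -0.036) on the log2 scale, while the differences of the inputs, -0.072 (-0.24 to 0.095), and of enrichment, -0.088 (-0.30 to 0.12), had 0 inside their intervals. The IP difference over all genes had quartiles of -0.23 and 0.18, and that of MTR lay between them.

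AHCY (ENSG00000101444, chr20:34280268-34311802, minus strand), the hydrolase that clears S-adenosylhomocysteine, had inputs of 123 counts (55.0 CPM, shCTL) and 71 counts (54.1 CPM, shA5) and IPs of 93 counts (23.6 CPM) and 80 counts (25.4 CPM). As for MAT2A, both inputs lay above both IPs. The enrichment of AHCY was -1.20 (-1.63 to -0.82) in shCTL and -1.08 (-1.57 to -0.61) in shA5. The genotypes differed by -0.022 (-0.46 to 0.41) in the input and by 0.13 (-0.50 to 0.76) in enrichment, so a difference was not detectable at this depth. AHCY has 6 pseudogenes named after it, and how reads shared with them were counted is not given in the sources used here, which makes its level uncertain.

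AHCYL1 and AHCYL2, relatives of AHCY of which AHCYL1 binds the IP3 receptor, and MAT2B and MTRR had fewer counts. AHCYL1 had 32 (shCTL) and 28 (shA5) input counts and 40 and 35 IP counts, and AHCYL2 had 12 and 9 input and 17 and 20 IP counts. MAT2B had 5 and 7 input and 18 and 9 IP counts, and MTRR 1 and 0 input and 4 and 1 IP counts. MTRR was at or near the floor throughout, so no fold is given for it. The intervals of the difference in enrichment were wide, from -1.51 to 0.62 for AHCYL1, from -1.54 to 1.97 for AHCYL2 and from -4.30 to 0.39 for MAT2B. AHCYL1 had the highest counts of these genes and an input difference of 0.56 (-0.21 to 1.36) on the log2 scale. AHCYL2 overlaps an lncRNA and a pseudogene, and MTRR overlaps FASTKD3, on the opposite strand, although the listed MTRR transcript shares 0 exonic bases with FASTKD3.

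**Figure D3:**
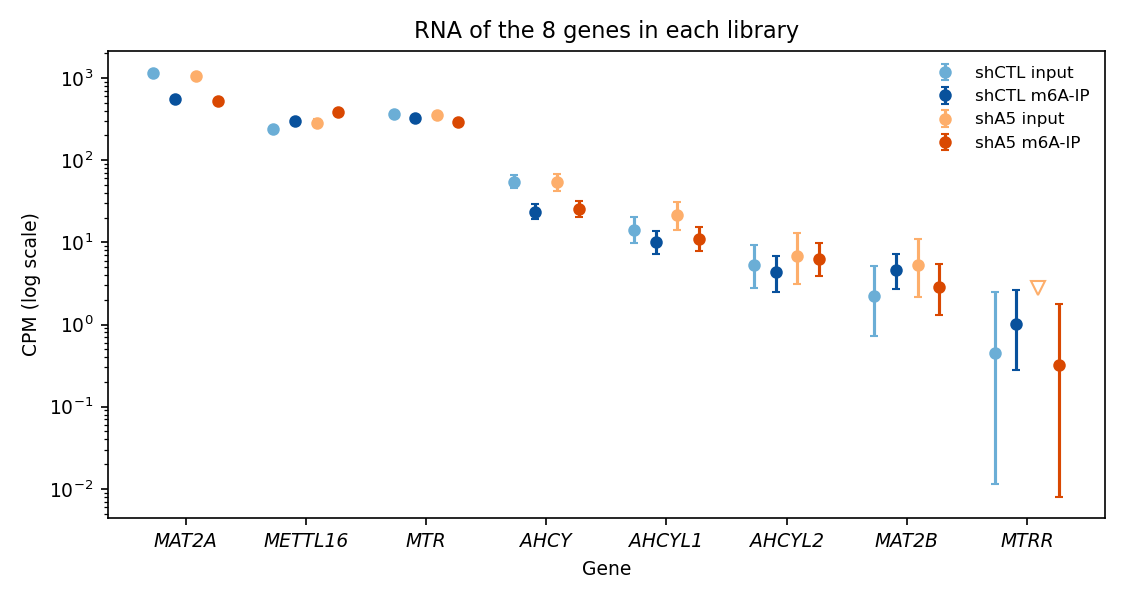
CPM (log scale) of the 8 genes in the 4 libraries, with exact 95% Poisson intervals (counting error only); the open triangle is the upper limit for MTRR in the shA5 input, where it had 0 counts. MAT2A stands at 1139, 559, 1068 and 532 CPM, and MTRR at or near the floor.

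Divided by transcript length, the levels in the shCTL input were 443 CPM per kb for MAT2A (426 to 461), 41.7 for METTL16 (38.2 to 45.3), 35.1 for MTR (32.7 to 37.6) and 25.6 for AHCY (21.2 to 30.5). Each of these 4 levels differed from its neighbour beyond the counting intervals. AHCYL1 followed with 3.83 (2.62 to 5.41), AHCYL2 with 1.75 (0.905 to 3.06), MAT2B with 0.725 (0.235 to 1.69) and MTRR with 0.138 (0.0035 to 0.767), and here every neighbouring pair of intervals overlapped. In the shA5 input the levels in CPM per kb were 410 for MAT2A, 49.4 for METTL16, 33.5 for MTR, 25.1 for AHCY, 5.58 for AHCYL1, 1.804 for MAT2B, 1.36 for AHCYL2 and 0 for MTRR. The order was the same except that MAT2B stood above AHCYL2.

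Counts also moved with how much sequence a transcript has to itself, so these levels cannot be read as RNA abundance between genes. Each transcript was compared with the other coding transcripts of its gene by stretches of 25 bases. Over all listed transcripts the median sum of counts per kb over the 4 libraries was 1.97 where at most 1% of the stretches were the transcript's own, 8.81 at 10 to 30% and 67.7 at 99 to 100%. METTL16 had 90.8% own sequence and 578 counts per kb, and MAT2A had 65.2% with 2293 counts per kb for ENST00000306434 and 48.9% with 710 for ENST00000409017. The main transcript of MTR had 37.6% with 330 counts per kb, and that of AHCY 5.36% with 170. Single transcripts lay far from the medians on both sides, as this AHCY transcript and METTL16 were above the medians of their ranges, 3.62 at 1 to 10% and 35.5 at 60 to 99%, and AHCY ENST00000538132, with 14.1% own sequence, had 0.423 counts per kb. AHCYL1 ENST00000359172 had 12.9% and 7.99 counts per kb, and AHCYL2 ENST00000490911 11.6% and 2.12. AHCYL2 ENST00000446544 and ENST00000325006 had less own sequence, 0.42 and 0.84%, but more counts per kb, 4.97 and 4.75. MTRR had 0.683% own sequence and 1.85 counts per kb, the most counted AHCYL1 transcript 9.16% and 21.1, and the MAT2B transcripts 14.0 and 41.7% with 9.43 and 5.28. These shares depend on the annotation. Against all annotated transcripts METTL16, MTRR, the main MTR transcript and MAT2B ENST00000518095 had 0%. The main AHCY transcript had 0.094%, while MAT2A kept 57.7 and 38.9%. The part of shared sequence in the low counts of MTRR, AHCYL1, AHCYL2 and MAT2B was not tested.

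Set beside all genes, none of the 4 SAM genes with enough counts was enriched at least 1.5-fold in the IP (0 of 4 in shCTL, against 22.5% of all genes, and 0 of 4 in shA5, against 24.3%). MAT2A and AHCY were depleted at least 1.5-fold, which makes 2 of 4 in shCTL, against 30.3% of all genes, and 2 of 4 in shA5, against 31.7%. Between shA5 and shCTL, 0 of 4 had an enrichment at least 1.5-fold higher (5.38% of all genes) or lower (5.09%), and 0 of 4 had an input at least 1.5-fold higher (3.44%) or lower (6.43%). With 4 genes, these counts cannot be set apart from the background. The background itself depends on scaling, and with DESeq2 size factors 1424 genes were enriched and 1377 depleted in shCTL, against 1197 and 1611 with library totals. It also turned with the filter. Among 2491 genes of at least 200 counts, as MAT2A, METTL16 and MTR have, 724 were enriched and 541 depleted in shCTL. The filter uses the mean over inputs and the larger IPs together, so it favours genes enriched in the IP. Over all genes the enrichment had a median of -0.11 and quartiles of -0.73 and 0.52 in shCTL, and a median of -0.096 and quartiles of -0.79 and 0.57 in shA5.

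The order of enrichment was METTL16, MTR, MAT2A and AHCY in both genotypes, and since both genes of a pair share their libraries, it does not depend on scaling. METTL16 lay 0.51 (0.32 to 0.71) above MTR on the log2 scale in shCTL and 0.71 (0.47 to 0.95) above it in shA5. MTR lay 0.85 (0.70 to 1.004) above MAT2A in shCTL and 0.74 (0.55 to 0.93) in shA5. MAT2A and AHCY did not differ beyond counting error, at 0.19 (-0.22 to 0.61) in shCTL and 0.087 (-0.41 to 0.58) in shA5. The methyltransferase and its target mRNA thus stood 1.36 (1.19 to 1.54) apart in shCTL, or 2.58-fold, and 1.45 (1.25 to 1.65) apart in shA5. DESeq2 size factors moved the median enrichment of all genes by 0.12 in shCTL and by 0.105 in shA5. Relative to the median, which a scaling moves together with each gene, MAT2A was at -0.91 in both genotypes and METTL16 at 0.45 and 0.54.

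**Figure D4:**
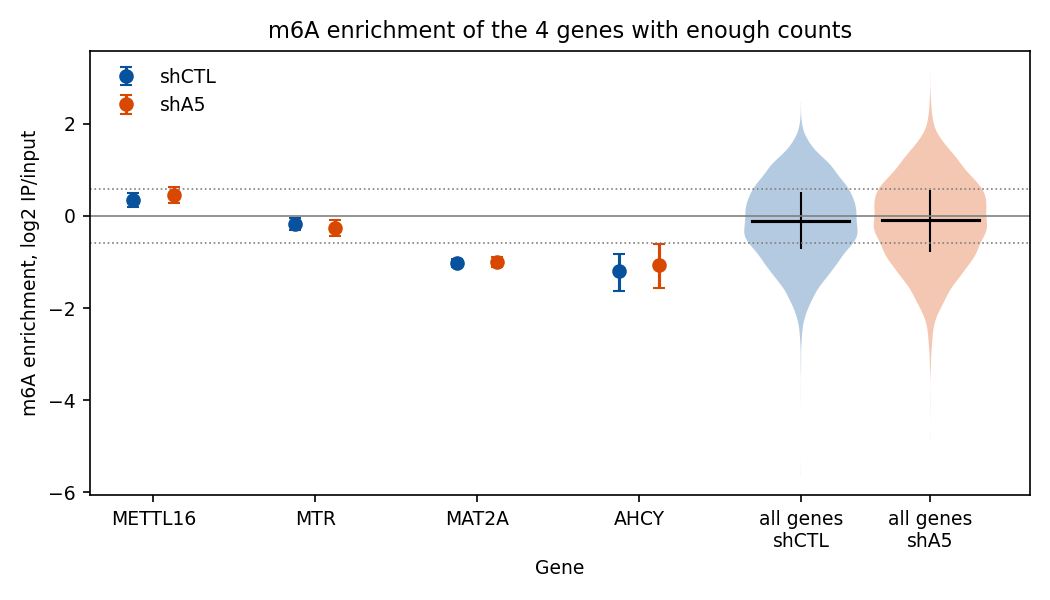
Enrichment (log2 IP/input) of METTL16, MTR, MAT2A and AHCY in shCTL and shA5, with exact 95% intervals (counting error only), beside the distribution over 5320 genes (shape), its median (thick line) and quartiles (thin line). Dotted lines mark 1.5-fold; MAT2A is at -1.03 and -1.004 and METTL16 at 0.34 and 0.45.

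The letters GGACT, a common form of the motif used by METTL3, the main mRNA m6A methyltransferase, were counted on the sense strand of the most counted transcript of each gene. There were 12 in MTR (1.14 per kb), 3 in METTL16 (0.523 per kb), 2 in MAT2A (0.710 per kb) and 1 in AHCY (0.465 per kb). Of 14825 genes, 90.9% had at least 1, with a median of 0.947 per kb (quartiles 0.568 and 1.41). METTL16, with the highest enrichment of these 4, and AHCY, with the lowest, were both below the quartile range in GGACT density, and MTR and MAT2A were inside it.

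Genes around the SAM cycle were taken from 6 lists with 86 genes, of which 79 were listed and 34 had enough counts. Of these 34, 3 were enriched at least 1.5-fold in the IP in shCTL and 4 in shA5, beside 22.5% and 24.3% of all genes. Depleted at least 1.5-fold were 15 in shCTL and 17 in shA5, beside 30.3% and 31.7% of all genes. The share over all genes was lower at high counts, with 541 and 590 depleted among 2491 genes of at least 200 counts. This mean is taken over inputs and IPs together, and the IPs are larger, so depleted genes pass the filter less easily. Most of the 34 averaged fewer than 200 counts, and the part of abundance or of the filter in their depletion was not tested. The median enrichment of the 34 genes was -0.53 in shCTL and -0.61 in shA5, below the medians of all genes. Between the genotypes 1 gene had a higher enrichment (5.38% of all genes) and 1 a lower enrichment (5.09%), and 0 had an input at least 1.5-fold higher (3.44%) or lower (6.43%). The median differences were -0.0066 in the input and -0.040 in enrichment, beside -0.020 and 0.0036 over all genes. Scaling to library totals holds the medians over all genes near 0, so a change common to all genes would not show here.

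Of the other SAM cycle genes, 9 of 12 were listed and 0 had enough counts, and the most abundant were GAMT, which uses SAM to make creatine (mean of 26.8 counts), and SLC25A26, the mitochondrial SAM carrier (23.2). MAT1A, the liver form of the adenosyltransferase, had a mean of 2.0 counts. In the folate cycle, which supplies the methyl group to MTR, 8 of 25 genes had enough counts, with 0 enriched in either genotype (22.5% and 24.3% of all genes) and 5 depleted in shCTL and 6 in shA5 (30.3% and 31.7%). These folate genes had a median enrichment of -0.92 in shCTL and -1.07 in shA5, and a median input difference of 0.0074.

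Cobalamin is the cofactor of MTR, and 7 of 12 genes of its handling had enough counts. Of these, 2 were enriched in shCTL and 3 in shA5 (22.5% and 24.3% of all genes), and 1 and 2 were depleted (30.3% and 31.7%). HCFC1 and THAP11, transcriptional regulators of the cobalamin gene MMACHC, were enriched in both genotypes, HCFC1 at 0.85 and 1.01 and THAP11 at 1.37 and 1.61. MMUT, which uses cobalamin in mitochondria, was depleted at -1.09 and -1.14, and MMACHC itself stood at -0.22 and -0.73, both named after their values were seen. CD320, the receptor that takes up cobalamin bound to transcobalamin, had inputs of 84.5 CPM (shCTL) and 65.6 CPM (shA5) and IPs of 106 and 125 CPM. The input of CD320 differed by -0.36 (-0.75 to 0.010) and its IP by 0.24 (0.034 to 0.44) between the genotypes, so only the interval of the IPs lies on one side of 0. Its enrichment was 0.33 in shCTL and 0.93 in shA5, a difference of 0.60 (0.17 to 1.04), the one gene past 1.5-fold upward among the 34 with enough counts.

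Polyamine synthesis uses decarboxylated SAM and methionine salvage recycles its by-product, and 7 of 15 genes of these pathways had enough counts, with 0 enriched (22.5% and 24.3% of all genes) and 3 depleted in each genotype (30.3% and 31.7%). SRM, spermidine synthase, differed by 0.24 (0.10 to 0.37) in the input, and MRI1, of the salvage pathway, by -0.37 (-0.66 to -0.10). Of all genes, 79.6% had a lower input difference than SRM and 15.5% a lower one than MRI1. ODC1, which makes putrescine, was the one gene past 1.5-fold downward in enrichment among the 34 with enough counts, at -0.75 (-1.66 to 0.090), an interval that holds 0, and is named after its values were seen because its mean was only 61.5 counts. Of 7 methionine uptake genes, 4 had enough counts, with SLC1A5 enriched (0.97 and 1.05) and SLC38A2 depleted (-1.19 and -0.82) in both genotypes, which is 1 of 4 each way, beside 22.5% and 24.3% of all genes enriched and 30.3% and 31.7% depleted. In the input, SLC3A2 differed by 0.51 (0.25 to 0.77) and SLC7A5 by 0.27 (0.14 to 0.41), both named after their values were seen. A lower input difference was found in 94.9% of all genes for SLC3A2 and in 82.9% for SLC7A5. SLC1A5 differed by 0.10 (-0.017 to 0.22) and SLC38A2 by -0.26 (-0.48 to -0.037). None of these input differences reached 1.5-fold.

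Among RNA factors linked to METTL16 and U6, 8 of 15 had enough counts, with 0 enriched (22.5% and 24.3% of all genes) and 5 depleted in each genotype (30.3% and 31.7%). NUDT21, a subunit of the cleavage factor CFIm, which takes part with METTL16 in MAT2A splicing, had an enrichment of -1.58 in shCTL and -2.15 in shA5, a difference of -0.57 (-0.96 to -0.19), just short of 1.5-fold. CPSF6, another CFIm subunit, differed by 0.44 (-0.36 to 1.24), and is named after its values were seen; CPSF7 was under the filter. YTHDC1, the nuclear m6A reader, had a mean of 9.5 counts.

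**Figure D5:**
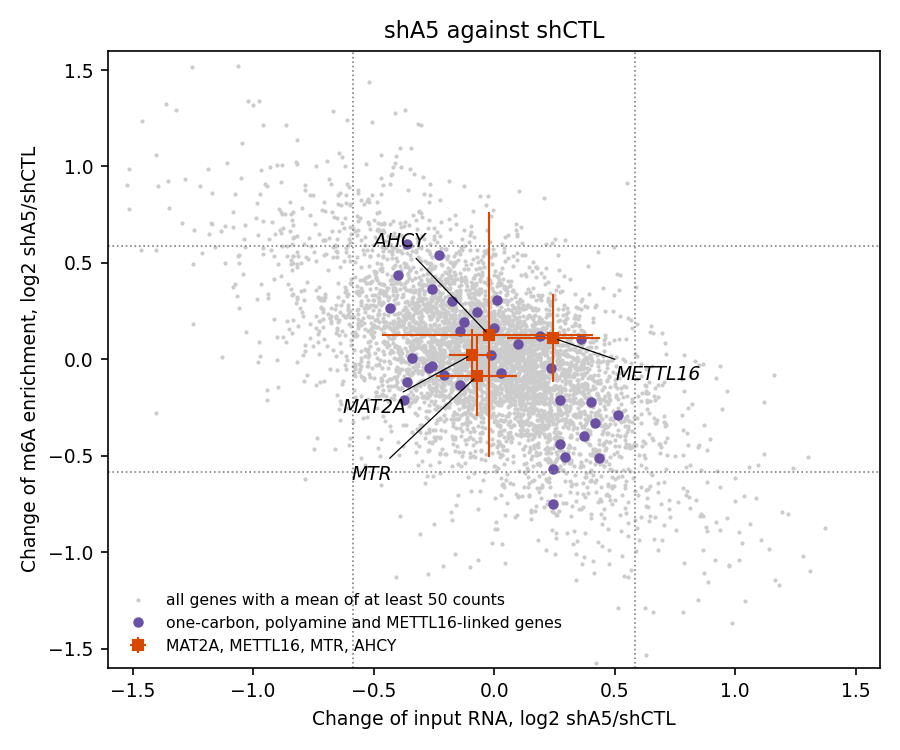
Differences between shA5 and shCTL in input RNA (horizontal axis) and in m6A enrichment (vertical axis), both log2, for 5320 genes (grey, of which 12 lie outside the axes), the 34 pathway genes with enough counts (purple) and MAT2A, METTL16, MTR and AHCY (orange, with exact 95% intervals for counting error only). Dotted lines mark 1.5-fold, inside which all 4 lie; both axes use the same input counts, so they are not independent.

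The genes whose profile over the 4 libraries was nearest to MAT2A, by Euclidean distance of centred log2 CPM over 2491 genes that averaged 200 counts or more, were MIF (0.0504), NCAPG (0.0578) and NUP88 (0.0587). MIF, the most like MAT2A, had enrichments of -1.09 in shCTL and -0.98 in shA5. The nearest to METTL16 were NAA40 (0.0154), ZNF8 (0.0513) and PRR22 (0.0621). NAA40 had enrichments of 0.35 and 0.44. Profiles and enrichments are made from the same CPM values, so likeness in enrichment follows from how these genes were chosen.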

How the data were processed

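Inputs and m6A-IPs of shCTL and shALKBH5 HEK293T cells were compared, 1 library per group, without p-values. Values as deposited are integer counts for each Ensembl transcript, made by the authors. The submitters' processing notes name bcl2fastq 2.0, fastp 0.23.2, HISAT2, SAMtools 1.9, MACS2 and hg38, and the methods name StringTie for gene quantification. Its version, the annotation release, the use of strand and the rule for reads shared between transcripts are not given in the sources used here. Gene names had turned into dates in 2 cases and were blank in 0.

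Counts were summed per gene name and divided by library totals to give CPM. Log2 ratios used a pseudocount of 0.5 CPM. Genes averaging 50 counts or more were compared, and called means past 1.5-fold. Intervals are exact at 95%: Clopper-Pearson conditional on the total for ratios, the conditional odds ratio for differences of ratios, Poisson for levels and binomial for shares. They cover counting error only, since reads without molecular identifiers are not independent molecules.

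The 8 genes and all lists were chosen with earlier results of these data known. Named are the 8 genes, ALKBH5, pathway genes past 1.5-fold with a mean of at least 200 counts or else the 2 most abundant of a list, and the 3 nearest profiles. Genes named outside these rules include MAT1A, YTHDC1, CPSF7 and those marked as named after their values were seen. Some items that these rules select are not reported here. Alternatives were edgeR 4.0.16 TMM factors, DESeq2 1.42.0 size factors (R 4.3.3), pseudocounts of 0.1 and 2 CPM, the most abundant transcript alone, a filter at 10 or 200 mean counts or none, and a 2-fold threshold. Own sequence was counted against coding transcripts with Ensembl IDs up to the highest one listed. Sequences, exons and motif matches are from hg38 and Gencode 44, and windows were folded with RNAfold 2.7.2. The steps were tested on simulated data. Python 3.11.15, numpy 2.4.6, scipy 1.17.1, pandas 2.3.3 and matplotlib 3.10.9 were used. Peaks and the RNA-seq of cell fractions were not analysed here.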

Additional observations from a re-analysis of the deposited data

How the results depend on the processing

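Of 200 values of ALKBH5 and 7 of the 8 genes (MTRR has no folds) recomputed under the scalings, pseudocounts and the most abundant transcript alone, 196 stayed within their counting intervals, 4 moved past them and 4 changed sign. The enrichment of MAT2A in shCTL moved from -1.03 to -0.94 with TMM factors, -0.91 with DESeq2 size factors and -0.93 with its most abundant transcript alone, and in shA5 from -1.004 to -0.90 with DESeq2 size factors. The sign changes all came with the most abundant transcript alone, in values whose intervals held 0: the difference in enrichment of MAT2A (-0.018 against 0.024) and of AHCYL2 (-0.53 against 0.18), and the difference of the IPs of AHCYL1 (-0.14 against 0.13) and AHCYL2 (-0.28 against 0.51). Numbers of genes past the threshold moved with the filter and the fold. In the order mean of at least 10 counts, at least 200 counts, no filter and 2-fold, genes with lower IP than input numbered 3318, 541, 5471 and 898 in shCTL (1611 as reported) and 3504, 590, 5586 and 981 in shA5 (1686). Genes with higher IP in shA5 numbered 1971, 773, 3655 and 637 (1293), and in shCTL 724 at 200 counts, 3224 with no filter and 538 at 2-fold (1197). Genes with higher enrichment in shA5 numbered 1164, 41, 3379 and 45 (286), with lower enrichment 1204, 27, 3193 and 41 (271), with higher input 864, 27, 2276 and 25 (183) and with lower input 1159, 83, 2966 and 61 (342). Fewer or more genes pass these filters by construction, but the shares moved as well. At 200 counts or more, 41 of 2491 genes had higher enrichment in shA5, against 286 of 5320 as reported. At 200 counts the excess of depleted over enriched genes was reversed, with 724 enriched and 541 depleted in shCTL and 773 and 590 in shA5. Part of this is built in, since the filter uses the mean over inputs and the larger IPs and so favours enriched genes. With DESeq2 size factors the excess of depleted genes was lost, at 1424 enriched and 1377 depleted in shCTL and 1514 and 1512 in shA5. Transcript uniqueness against all annotated transcripts, chosen after seeing the data, gave median counts per kb of 4.11 at up to 1% and 31.3 at 99 to 100% own sequence, with METTL16 at 0% in place of 90.8%. Each IP was set against the input of its own genotype. With 1 library per group there were no replicate pairs to test and no replicate to leave out. The shA5 input, the smallest library, limits the precision.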
